A study of Mus musculus with 8 samples.

Results

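The 10 genes described here make up the core of the circadian clock and the clock's own output factors: *Dbp*, *Tef*, *Hlf*, *Nr1d1*, *Nr1d2*, *Per1*, *Per2*, *Per3*, *Arntl* and *Clock*. They were chosen by name, and their probes were found through the RefSeq accession of each probe. All 10 were on the array, among 20660 genes with a named probe. They had 11 probes, 2 for *Dbp* and 1 for each of the others, and all 11 were among the 32599 of 55681 probes that could be tested.

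Hippocampal RNA was measured in adult male mice of the transgenic strain Muta Mouse, with 1 array per mouse. The 4 BaP-exposed mice had received benzo[a]pyrene (BaP), a polycyclic aromatic hydrocarbon, in olive oil by gavage at 70 mg/kg bw on each of 3 days, and the 4 control mice had received the vehicle. Tissue was taken 24 hr after the last dose. The time of day of collection is not given in the sources used here, and every mouse was sampled once, so that each value is a single reading of a gene that cycles over the day. A difference in time of day between the groups could not be told apart from a difference with BaP. The tissue was whole hippocampus, in which a lower number of cells of a type and less RNA per cell cannot be told apart.

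In the clock, ARNTL (also called BMAL1) and CLOCK bind E-boxes as a pair and turn on the *Per* and *Cry* genes, whose proteins then repress that pair. A second loop runs through the nuclear receptors REV-ERB alpha and beta, encoded by *Nr1d1* and *Nr1d2*, which repress *Arntl*, while the ROR receptors activate it. DBP, TEF and HLF are PAR bZIP factors that bind D-boxes and carry the rhythm to other genes, and NFIL3 represses at the same sites. In the brain the suprachiasmatic nucleus sets the phase, and the hippocampus has a clock of its own. *Per1* also responds directly to glucocorticoids and to neuronal activity, through a glucocorticoid response element and a cyclic AMP response element.

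Control mice 3 and 4 and BaP-exposed mice 3 and 4 carry titles that contradict their source names as to treatment. Groups follow the titles here, since the identity numbers of the mice run with them. The main differences between the groups under the source names stand beside those by title or in the section on the processing. Every value per mouse is a log2 ratio of the Cy5 signal of that mouse over the Cy3 signal of a universal mouse reference RNA on the same array, and a log2 fold change is the mean of BaP-exposed mice minus the mean of control mice. Levels on this scale compare mice for 1 probe, not 1 gene with another. Every member's probe was well above background in Cy5 on all 8 arrays, and none was saturated or marked as an outlier spot.

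The short promoter stretches below show which members carry clock motifs next to a start site. They come from RefSeq sequence of the assembly GRCm38.p6, in windows from 250 bases before to 50 bases after each start, with 14 windows for 9 of the 10 genes, all but *Per2*, which was not searched. Each is written 5′ to 3′ on the gene's own strand, with the motif in capitals. The E-box CACGTG, the site of the CLOCK and ARNTL pair, was found on the plus strand in *Per1* at chr11:69098759-69098812 and in both windows of *Tef*, at chr15:81802522-81802575 and chr15:81811252-81811305.
Per1: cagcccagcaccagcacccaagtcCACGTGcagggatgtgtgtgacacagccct
Tef, first window: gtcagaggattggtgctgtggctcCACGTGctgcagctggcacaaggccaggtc
Tef, other window: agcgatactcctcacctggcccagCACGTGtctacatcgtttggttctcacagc
The motif began 166 bases before the start in *Per1* and 127 and 138 bases before the starts in *Tef*. A variant of the E-box, CACGTT, reads AACGTG on the other strand. It was found in *Nr1d1* at chr11:98775378-98775429 on the minus strand, and the D-box TTATGTAA, the site of DBP, TEF and HLF, was found at 2 places in *Per3* at chr4:151044792-151044894 on the minus strand.
Nr1d1: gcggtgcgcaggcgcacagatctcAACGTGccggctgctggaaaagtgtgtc
Per3: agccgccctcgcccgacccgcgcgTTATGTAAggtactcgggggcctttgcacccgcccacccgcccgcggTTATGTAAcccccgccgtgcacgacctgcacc
Over all 32851 windows of the table, and with both strands searched, CACGTG was in 7.15%, CACGTT in 4.68% and TTATGTAA in 0.938%. The ROR and REV-ERB core TAGGTCA, in 2.61% of windows, was found in *Arntl*, and the cyclic AMP response element TGACGTCA, in 1.79%, was found in *Hlf*. The letters of the other D-box searched (TTACGTAA, 0.119%), the other receptor core (TGGGTCA, 3.98%) and of the palindromic glucocorticoid response element (0.00913%) were in none of the members' windows. A match is a description of the letters in this window and not a bound site.

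Between the groups, 6 of the 10 genes had a higher mean after BaP and 4 a lower one, and their median log2 fold change was 0.15, against −0.00428 over all probes tested. These counts were 8 and 2 without background correction or with the log ratio of the scanner software. They were 7 and 3 in the deposited ratios, and 3 and 7 under the source names. With the arrays centred on the median all 10 had a higher mean, and 7 lay above the median of all probes. None passed limma's test with Benjamini-Hochberg adjustment at 0.05, where the lowest adjusted p of the 10 was 0.276 and where 0.0092% of all probes passed. At an unadjusted p of 0.05, 4 genes were called, *Dbp*, *Nr1d1*, *Nr1d2* and *Per1*, each with the higher mean in BaP-exposed mice, while 8.76% of all probes were called in either direction, 4.53% with a higher and 4.23% with a lower mean. The values of the groups did not overlap for 4 genes, *Dbp*, *Nr1d2*, *Per1* and *Per2*, again with every BaP-exposed mouse above every control mouse. Over all probes, 5.06% did not overlap, 2.52% with the BaP-exposed mice above and 2.54% with them below. An exact permutation test of 1 gene over the 70 assignments of 8 mice cannot give a p below 0.0286, which is the value for any gene whose groups do not overlap.

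**Figure D1:**
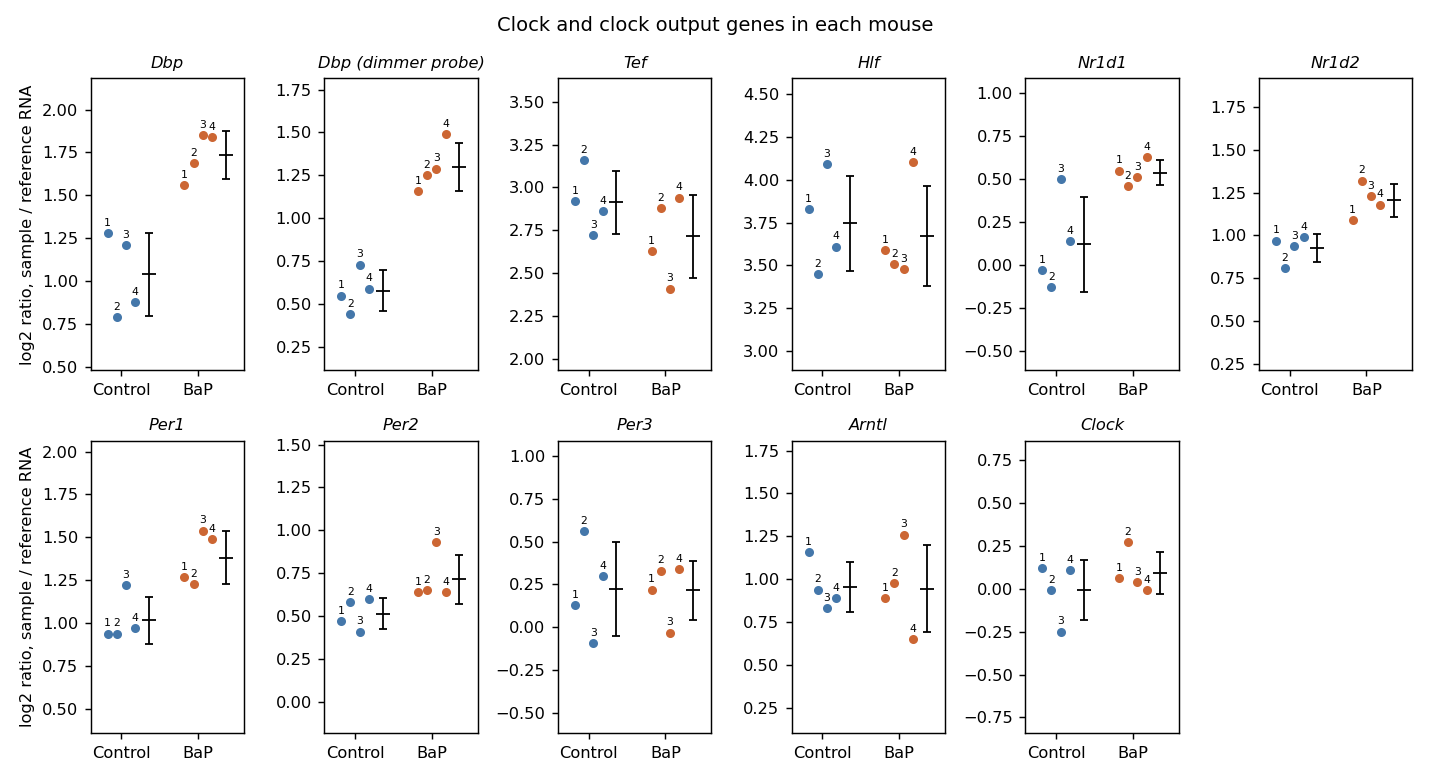
Log2 ratio of Cy5 (mouse) over Cy3 (reference RNA) in each of 4 control and 4 BaP-exposed mice, for the 11 probes of the 10 clock genes, with the number of the mouse above each point. Black marks are group means with SD, and every panel spans the same number of log2 units, so that distances but not heights can be compared between panels. Both *Dbp* probes, *Nr1d2*, *Per1* and *Per2* show no overlap of the groups, and in *Nr1d1* control mouse 3 lies within the range of the BaP-exposed mice.

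*Dbp*, the D-box binding activator whose transcript has one of the deepest daily rhythms known, had the largest difference of the 10. Its log2 ratio was 1.28, 0.79, 1.21 and 0.88 in control mice 1 to 4 and 1.56, 1.69, 1.85 and 1.84 in BaP-exposed mice 1 to 4. The lowest BaP-exposed mouse thus lay above the highest control mouse. The log2 fold change was 0.70 (SE 0.13, 95% interval 0.41 to 0.98), a 1.62-fold difference between means of 1.04 ± 0.24 and 1.73 ± 0.14 (SD, n = 4), with an adjusted p of 0.276 in limma and an exact permutation p of 0.0286. It was the only member past 1.5-fold, a size reached by 1.02% of all probes in either direction and by 0.681% with a higher mean. The other *Dbp* probe, which was dimmer, read 0.55, 0.44, 0.73 and 0.59 in control mice and 1.16, 1.25, 1.29 and 1.49 in BaP-exposed mice. This probe again separated the groups in full. Its log2 fold change was 0.72 (SE 0.10, limma's adjusted p = 0.121), and 0.341% of all probes had a change at least as high. Over the alternatives with the groups of the titles, its adjusted p in limma ranged from 0.0696 with the Cy5 channel alone to 0.701 in the mice without disputed labels.

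The difference in *Dbp* had the same sign in each row of the slide and about the same size in the mouse channel alone. The 8 arrays lay on 1 slide in 2 rows, with 2 mice of each group in each row, and the log2 fold change of *Dbp* was 0.59 in row 1 and 0.80 in row 2. In the Cy5 channel alone it was 0.69. Row 1 holds exactly the 4 mice whose labels do not disagree, and row 2 the disputed mice, so that 0.59 is also the value for the undisputed mice. Under the source names it was −0.10. Leaving out 1 mouse at a time, it ranged from 0.61 to 0.78.

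For both paralogs of *Dbp* the groups overlapped. *Tef*, which encodes thyrotroph embryonic factor, read 2.92, 3.16, 2.72 and 2.86 in control mice and 2.63, 2.88, 2.41 and 2.94 in BaP-exposed mice. The ranges overlapped, and the log2 fold change was −0.20 (SE 0.13, 95% interval −0.50 to 0.10, limma's adjusted p = 0.678), and −0.12 without control mouse 2 or −0.10 without BaP-exposed mouse 3. *Hlf*, which encodes hepatic leukemia factor and is abundant in brain, read 3.83, 3.45, 4.09 and 3.61 in control mice and 3.59, 3.51, 3.48 and 4.10 in BaP-exposed mice. Its highest values in the groups, in control mouse 3 and BaP-exposed mouse 4, were nearly equal. The log2 fold change of *Hlf* was −0.07 (SE 0.17, 95% interval −0.45 to 0.30, limma's adjusted p = 0.92), and its SD within groups was above that of 89.4% of all probes tested. Taken within each mouse, *Dbp* minus *Tef* was higher in BaP-exposed mice by 0.89 (SE 0.24) and *Dbp* minus *Hlf* by 0.77 (SE 0.15), and neither difference overlapped between the groups (exact permutation p = 0.0286 each, 0.114 after adjustment over the 8 differences between related genes computed, which a lone difference at the smallest p could not pass). *Tef* minus *Hlf* differed by −0.12 between the groups (exact permutation p = 0.657). Under the source names, *Dbp* minus *Tef* differed by −0.02 and *Dbp* minus *Hlf* by −0.09.

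The REV-ERB genes both had a higher mean in BaP-exposed mice. *Nr1d1*, which encodes REV-ERB alpha, read −0.03, −0.13, 0.50 and 0.14 in control mice and 0.55, 0.46, 0.51 and 0.63 in BaP-exposed mice. Control mouse 3 was above BaP-exposed mouse 2 and just under BaP-exposed mouse 3, while the other control mice were below all 4. The log2 fold change was 0.42 (SE 0.13, limma's adjusted p = 0.498, exact permutation p = 0.0571), and the groups did not overlap once control mouse 3 or BaP-exposed mouse 2 was left out. In row 1 of the slide, with the undisputed mice, the difference in *Nr1d1* was 0.59, and in row 2 it was 0.25. The SD was 0.28 in control mice and 0.07 in BaP-exposed mice. *Nr1d2*, which encodes REV-ERB beta, read 0.97, 0.81, 0.94 and 0.99 in control mice and 1.09, 1.32, 1.23 and 1.18 in BaP-exposed mice. It varied little within groups, with an SD below that of most probes (percentile 12), and the groups did not overlap. Its log2 fold change was 0.28 (SE 0.08, 95% interval 0.09 to 0.46, limma's adjusted p = 0.496, exact permutation p = 0.0286), and in the Cy5 channel alone it was 0.18, with overlap of the groups. The difference between the 2 genes did not pass its test (*Nr1d1* minus *Nr1d2* 0.14, SE 0.15, exact permutation p = 0.371; 0.08 without control mouse 1 and 0.26 without control mouse 3).

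The 3 *Per* genes, which encode the repressors of the CLOCK and ARNTL pair, differed in how far the groups lay apart. *Per1* read 0.94, 0.94, 1.22 and 0.97 in control mice and 1.27, 1.23, 1.54 and 1.49 in BaP-exposed mice. Control mouse 3 stood apart from the other control mice and lay just under BaP-exposed mouse 2. The log2 fold change of *Per1* was 0.37 (SE 0.10, 95% interval 0.13 to 0.60, limma's adjusted p = 0.49, exact permutation p = 0.0286), with 0.31 and 0.42 in the rows of the slide. *Per2* read 0.47, 0.58, 0.41 and 0.60 in control mice and 0.64, 0.65, 0.93 and 0.64 in BaP-exposed mice. The other BaP-exposed mice lay just above the highest control mouse, while BaP-exposed mouse 3 stood above all others. The log2 fold change of *Per2* was 0.20 (SE 0.09, 95% interval −0.01 to 0.41, limma's adjusted p = 0.582, exact permutation p = 0.0286), it was 0.13 without BaP-exposed mouse 3, 0.12 in row 1 and 0.28 in row 2, and the groups overlapped when the arrays were scaled to a common spread or centred on the median. *Per3* read 0.13, 0.56, −0.09 and 0.30 in control mice and 0.22, 0.33, −0.03 and 0.34 in BaP-exposed mice, a log2 fold change of −0.01 (SE 0.14, 95% interval −0.33 to 0.30, limma's adjusted p = 0.988). None of the 3 differences among *Per* genes passed its test. *Per1* minus *Per3* was higher in BaP-exposed mice by 0.38 (SE 0.24, exact permutation p = 0.2), *Per2* minus *Per3* by 0.21 (exact permutation p = 0.4; 0.06 without BaP-exposed mouse 3) and *Per1* minus *Per2* by 0.17 (exact permutation p = 0.2). Leaving out 1 mouse moved *Per1* minus *Per3* to between 0.24 (without control mouse 2) and 0.55 (without control mouse 3), and *Per1* minus *Per2* to between 0.11 (without BaP-exposed mouse 4) and 0.27 (without control mouse 3).

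For the activators *Arntl* and *Clock* the groups overlapped. *Arntl* read 1.16, 0.94, 0.83 and 0.89 in control mice and 0.89, 0.98, 1.26 and 0.65 in BaP-exposed mice, so that the highest and the lowest value were both in BaP-exposed mice. Its log2 fold change was −0.01 (SE 0.13, 95% interval −0.30 to 0.28, limma's adjusted p = 0.985). *Clock* read 0.12, −0.01, −0.25 and 0.11 in control mice and 0.06, 0.27, 0.04 and −0.01 in BaP-exposed mice, a log2 fold change of 0.10 (SE 0.11, 95% interval −0.14 to 0.33, limma's adjusted p = 0.809), which was 0.02 without control mouse 3 and 0.04 without BaP-exposed mouse 2. These intervals leave room for differences of about the size measured for *Nr1d2*. *Arntl* minus *Clock* differed by −0.11 between the groups (SE 0.14, exact permutation p = 0.486), and by −0.05 without BaP-exposed mouse 4 and −0.23 without BaP-exposed mouse 3.

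**Figure D2:**
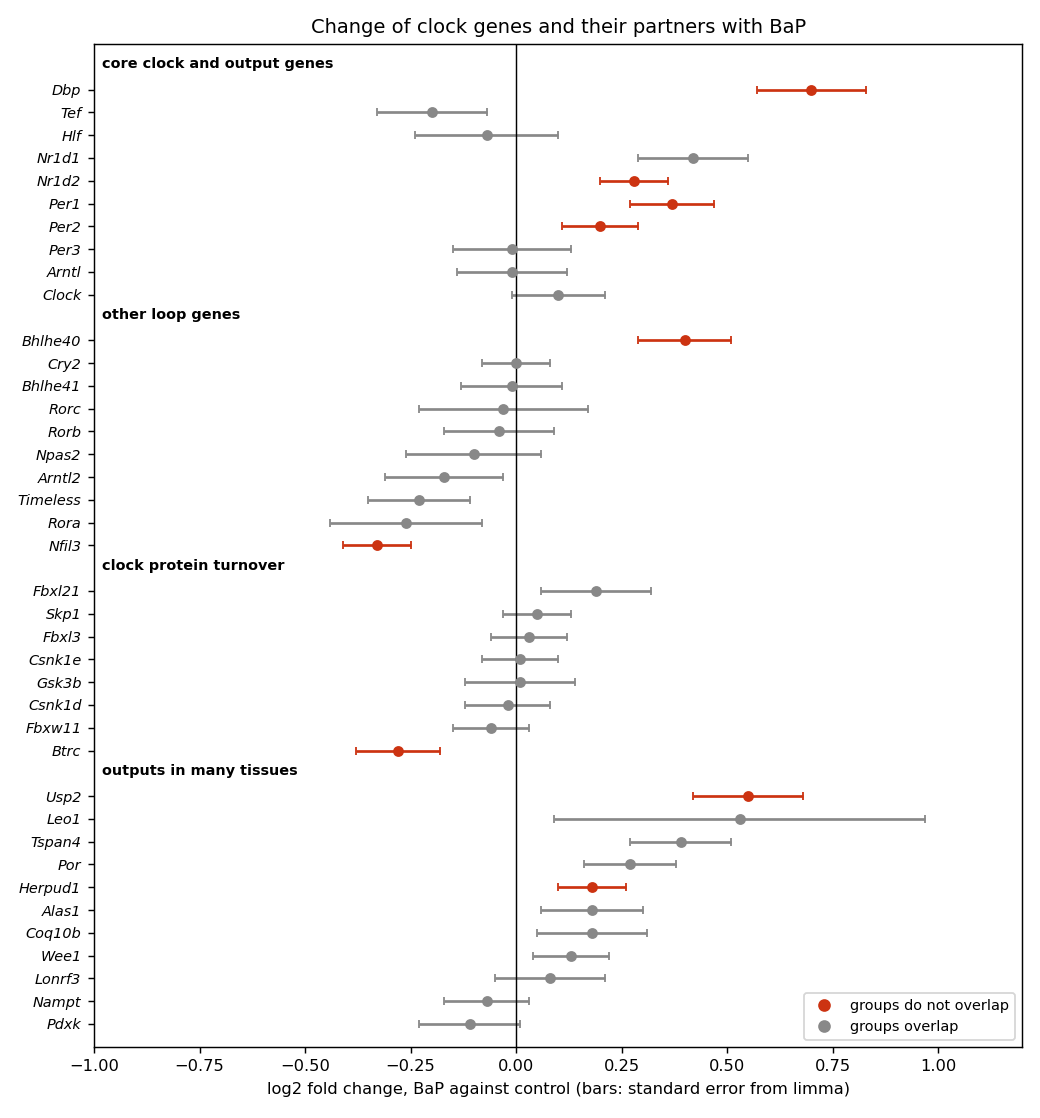
Log2 fold change (BaP-exposed minus control mice) with limma's SE, for the 10 core clock and output genes, other genes of the loops, genes of clock protein turnover and genes that cycle in many tissues. Red points are genes whose groups did not overlap: *Dbp*, *Per1*, *Nr1d2* and *Per2* among the 10, and *Bhlhe40*, *Usp2* and *Herpud1* with a higher and *Nfil3* and *Btrc* with a lower mean elsewhere.

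Among the other genes of the loops, *Bhlhe40* and *Nfil3* had groups without overlap, in opposite directions. Of 12 listed, 10 could be tested, 1 had a higher and 9 a lower mean after BaP, the median log2 fold change was −0.07 and none passed limma's adjusted p of 0.05 (lowest 0.448). At limma's unadjusted p of 0.05, 1 in each direction was called, against 4.53% of all probes with a higher and 4.23% with a lower mean. When the arrays were centred on the median, which moved the median of all probes to 0.167, 6 of these 10 had a higher mean. *Bhlhe40*, whose product DEC1 represses at E-boxes and is itself driven by them, read −0.70, −1.0, −0.65 and −0.73 in control mice and −0.55, −0.31, −0.39 and −0.23 in BaP-exposed mice (log2 fold change 0.40, SE 0.11, limma's adjusted p = 0.478). *Nfil3*, the repressor at D-boxes, read −1.08, −1.25, −1.28 and −1.16 in control mice and −1.47, −1.59, −1.46 and −1.55 in BaP-exposed mice (log2 fold change −0.33, SE 0.08, limma's adjusted p = 0.448). The groups did not overlap for either gene, with *Bhlhe40* in the direction of *Dbp* and *Nfil3* opposite to it. With the arrays centred on the median, *Bhlhe40* was at 0.64 and *Nfil3* at −0.04, where all probes had a median of 0.167. *Cry2*, which encodes a cryptochrome that represses with the PER proteins, had a log2 fold change of −0.00 (SE 0.08). *Npas2*, the relative of *Clock* in forebrain, had one of −0.10 (SE 0.16), and of 0.58 with the log ratio of the scanner software. *Rora*, the activator of *Arntl*, had a log2 fold change of −0.26 (SE 0.18). It was −0.01 with the arrays centred on the median and −0.38 in the mice without disputed labels. *Cry1* was well above background in Cy5 on no array and *Ciart* on only 2 of 8, both of BaP-exposed mice, and neither gene was tested.

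Genes whose products set the lifetime of PER and CRY proteins, such as the casein kinases and the F-box proteins, numbered 8, and all were tested. Of these, 5 had a higher and 3 a lower mean, the median log2 fold change was 0.01, and none passed limma's adjusted p of 0.05. At limma's unadjusted p of 0.05, 1 was called with a lower mean, against 4.23% of all probes. That one was *Btrc*, a ubiquitin ligase subunit that recognises PER proteins, at 3.77, 3.70 and 3.99 in control mice 2 to 4 and 3.58, 3.48, 3.49 and 3.63 in BaP-exposed mice, with the spot of control mouse 1 marked as an outlier and left out. The log2 fold change of *Btrc* was −0.28 (SE 0.10, limma's adjusted p = 0.515), and 0.04 when the arrays were centred on the median, under which all 8 turnover genes had a higher mean. In the Cy5 channel alone 7 of them did. Of 12 genes that cycle in many tissues, 11 were tested, 9 had a higher and 2 a lower mean, the median log2 fold change was 0.18, and none passed limma's adjusted p of 0.05 (lowest 0.433). At limma's unadjusted p of 0.05, 3 were called, all with a higher mean, against 4.53% of all probes. With the arrays centred on the median all 11 had a higher mean, and under the source names 2 did. *Usp2*, a deubiquitinase with a strong daily rhythm, read 2.57, 2.26, 2.74 and 2.49 in control mice and 2.80, 3.28, 3.18 and 3.01 in BaP-exposed mice (log2 fold change 0.55, SE 0.13, limma's adjusted p = 0.433), without overlap of the groups.

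Between mice of the same group, pairs of the 10 genes were about as often opposed as aligned. Co-variation was measured over the 8 mice after the mean of each group had been taken off, as Pearson's r with an exact permutation p over all pairings of mice within groups. Where the 2 farthest mice were left out, they were those whose deviation lay farthest from the median for 1 gene only. In a pair this was the gene that comes first in the order of the 10 genes given at the start. Beside a list mean it was the clock gene. Of the 45 pairs of genes, 22 had a positive and 23 a negative r, with a median of −0.01 and a range from −0.82 to 0.88. An unadjusted p of 0.05 was reached by 3 pairs, 2 positive and 1 negative, and no pair passed after adjustment over the 45, where the lowest adjusted p was 0.234. Under the source names no pair passed either, and each r is given for the groups of the titles only. The smallest p these pairings allow is 0.00174, at which a single pair could not pass the adjustment over 45 on its own, so that the absence of passing pairs says little about co-variation.

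**Figure D3:**
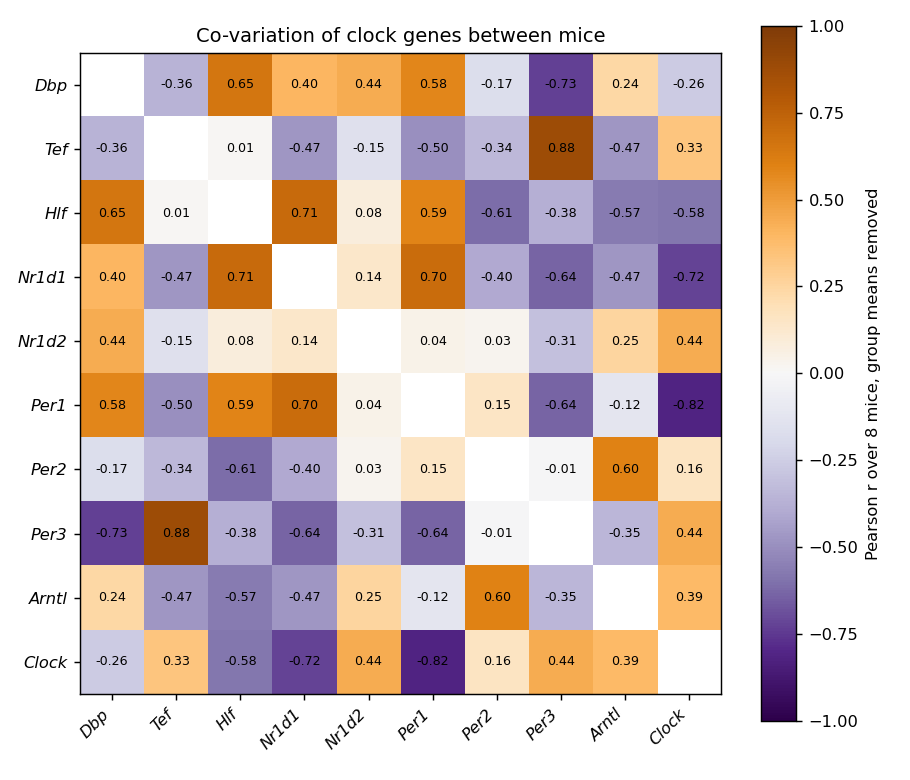
Pearson's r between each pair of the 10 genes over 8 mice, after taking off the mean of each group (orange positive, purple negative). The strongest pairs are *Tef* with *Per3* at 0.88 and *Per1* with *Clock* at −0.82, and positive and negative pairs are about equal in number.

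*Tef* and *Per3* moved together most closely, with r = 0.88 (Spearman's rho 0.90, exact permutation p = 0.00521 and 0.0122, adjusted p for r 0.234). Control mouse 2 was the highest control mouse for both genes and control mouse 3 the lowest, while BaP-exposed mouse 3 was the lowest of its group for both and BaP-exposed mouse 4 the highest. Without control mouse 2 and BaP-exposed mouse 3, which lay farthest out for *Tef*, r was 0.63, and it was 0.83 to 0.91 when 1 mouse at a time was left out. *Per3* had r = −0.73 with *Dbp* (exact permutation p = 0.111), the opposite sign to its r with *Tef*, and neither r passed after adjustment.

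*Per1* and *Clock* moved in opposite directions, with r = −0.82 (Spearman's rho −0.76, exact permutation p = 0.0208 and 0.0312, adjusted p for r 0.469), and r = −0.66 without the 2 farthest mice. Control mouse 3 was the highest of its group for *Per1* and the lowest for *Clock*, and BaP-exposed mouse 2 was the lowest for *Per1* and the highest for *Clock*. *Hlf* and *Nr1d1* had r = 0.71 (rho 0.69, exact permutation p = 0.0382 and 0.0972, adjusted p for r 0.573). That relation rested on the 2 mice farthest out for *Hlf*, since r was 0.29 without them.

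Pairs of closely related genes ranged from opposed to aligned within groups, and none of the 8 passed its test. Among the PAR bZIP genes, *Dbp* and *Hlf* had r = 0.65 (exact permutation p = 0.13), *Dbp* and *Tef* −0.36 (exact permutation p = 0.384) and *Tef* and *Hlf* 0.01. *Nr1d1* and *Nr1d2* had r = 0.14 (exact permutation p = 0.76). Among the *Per* genes, *Per1* and *Per3* had r = −0.64 (exact permutation p = 0.127), *Per1* and *Per2* 0.15 (exact permutation p = 0.788) and *Per2* and *Per3* −0.01. With 1 mouse at a time left out, r ran from −0.81 to −0.37 for *Per1* and *Per3*, from −0.58 to 0.64 for *Per1* and *Per2* and from −0.42 to 0.87 for *Per2* and *Per3*, so that the sign of the last 2 rested on single mice. Without the 2 mice farthest out for the gene named first, r was 0.11 for *Per1* and *Per3* and 0.99 for *Per2* and *Per3*. With 1 mouse left out, r for *Nr1d1* and *Nr1d2* ran from −0.34 to 0.33, and for *Tef* and *Hlf* from −0.56 to 0.36. *Dbp* and *Hlf* stayed between 0.52 and 0.81, and *Dbp* and *Tef* between −0.57 and −0.06. The partners *Arntl* and *Clock* had r = 0.39 (exact permutation p = 0.321), and 0.69 without the 2 farthest mice. The 4 genes called at an unadjusted p of 0.05 between the groups gave r between *Dbp* and *Per1* of 0.58 (exact permutation p = 0.137), between *Dbp* and *Nr1d1* of 0.40 (exact permutation p = 0.538) and between *Nr1d1* and *Per1* of 0.70 (exact permutation p = 0.0538), while *Nr1d2* had r = 0.44 with *Dbp*, 0.14 with *Nr1d1* and 0.04 with *Per1*. Without the 2 mice farthest out for the gene named first, r was 0.92 for *Dbp* and *Per1*, 0.70 for *Dbp* and *Nr1d1* and 0.39 for *Nr1d1* and *Per1*. It was likewise 0.12 for *Dbp* and *Nr1d2*, −0.42 for *Nr1d1* and *Nr1d2* and −0.81 for *Nr1d2* and *Per1*. With that choice of mice, 2 of the 3 relations of *Nr1d2* changed sign. As a yardstick for what the arrays resolve within groups, the 2 probes of *Dbp* itself had r = 0.61 (exact permutation p = 0.137).

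**Figure D4:**
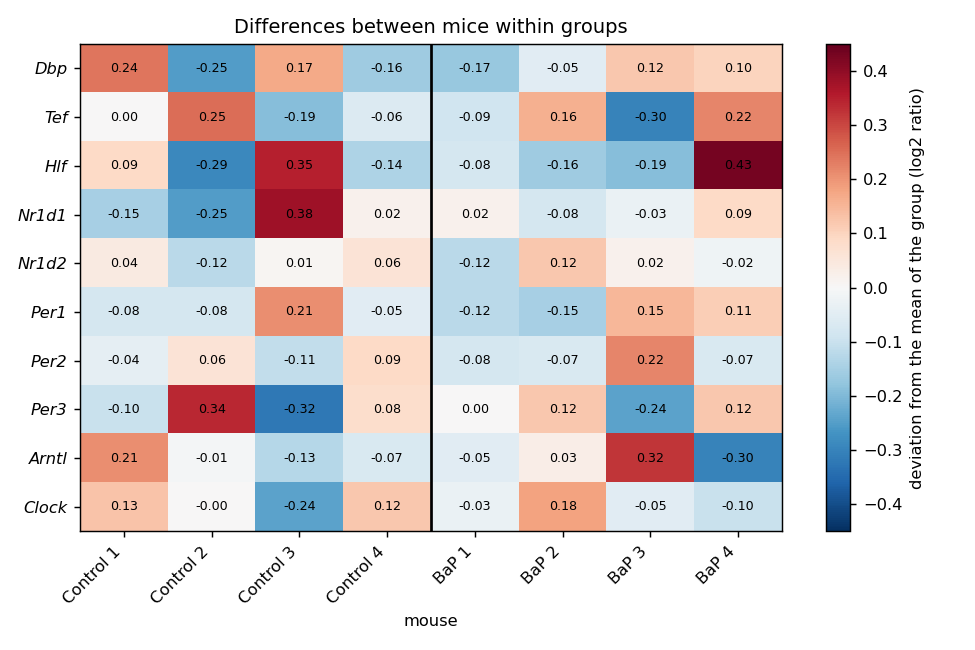
Deviation of each mouse from the mean of its own group in log2 units, for the 10 genes, with control mice 1 to 4 on the left and BaP-exposed mice 1 to 4 on the right. Control mouse 3 was high for *Hlf*, *Nr1d1*, *Per1* and *Dbp* and low for *Per3*, *Clock* and *Tef*, and BaP-exposed mouse 3 was high for *Arntl* and *Per2* and low for *Tef* and *Per3*.

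The mice differed in how often they marked the edge of their group. Control mouse 3 was the highest or the lowest of its group for 8 of the 10 genes, control mouse 2 and BaP-exposed mouse 3 for 7 each, and control mouse 4 for 2. Control mouse 3 stood above its group mean by 0.38 for *Nr1d1*, 0.35 for *Hlf*, 0.21 for *Per1* and 0.17 for *Dbp*, and its deviations were −0.32 for *Per3* and −0.24 for *Clock*. Control mouse 2 went the other way for most of these genes, at 0.34 for *Per3* and 0.25 for *Tef* but −0.29 for *Hlf*, −0.25 for *Dbp* and −0.25 for *Nr1d1*. BaP-exposed mouse 3 shared the low *Tef* and *Per3* of control mouse 3, at −0.30 and −0.24, but was high for *Arntl*, at 0.32, where control mouse 3 was at −0.13. BaP-exposed mouse 4 was high for *Hlf*, at 0.43, and low for *Arntl*, at −0.30.

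The mean of glucocorticoid-responsive genes differed between the groups without overlap, as *Per1* did, which answers to both the clock and glucocorticoids. *Per1* was not in the list of 20 genes, all of which were tested. The list was chosen with earlier results of these data known, so that its separation of the groups is a description. Of the 20, 17 had a higher mean after BaP, the median log2 fold change was 0.25 and none passed limma's adjusted p of 0.05 (lowest 0.147). At limma's unadjusted p of 0.05, 9 were called with a higher and 1 with a lower mean, against 4.53% and 4.23% of all probes. The mean of the list in each mouse was 0.07 to 0.32 in control mice and 0.41 to 0.65 in BaP-exposed mice. Within groups, *Per1* had r = 0.36 with that mean (exact permutation p = 0.446), and −0.63 without the 2 farthest mice, so that its sign rested on them. *Per3* had r = −0.87 with it (rho −0.83, exact permutation p = 0.0208 and 0.0347) and *Tef* r = −0.85 (rho −0.74, exact permutation p = 0.0226 and 0.066), both with an adjusted p of 0.226 over the 30 relations of the 10 genes with 3 list means. Without the 2 farthest mice, r was −0.71 for *Per3* and −0.54 for *Tef*. The part of glucocorticoid-responsive genes in the differences of the clock genes was not tested.

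The mean of genes induced by neuronal activity overlapped between the groups. Of 10 immediate early genes, 4 had a higher and 6 a lower mean, and none passed limma's adjusted p of 0.05. At limma's unadjusted p of 0.05, 2 were called, *Fos* and *Fosb*, both with a lower mean, against 4.23% of all probes. List means were −1.04 to −0.49 in control mice and −1.10 to −0.86 in BaP-exposed mice. Within groups, the brighter *Dbp* probe had r = 0.87 with the list mean (rho 0.86, exact permutation p = 0.0191 and 0.033, adjusted p = 0.226), and r = 0.89 without the 2 farthest mice. The dimmer *Dbp* probe, which had r = 0.61 with the brighter one, was not compared with the list mean, so that the relation is shown for 1 probe only. *Per1* had r = 0.28 with the list mean (exact permutation p = 0.536).

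Markers of other cell types that a dissected hippocampus can hold were read beside these genes. All 12 choroid plexus markers tested had a higher mean after BaP, the median log2 fold change was 0.84 and none passed limma's adjusted p of 0.05, and the mean of the list was 1.90 to 3.69 in control mice and 1.45 to 4.85 in BaP-exposed mice. The lowest of all 8 was BaP-exposed mouse 1, whose *Dbp* was at 1.56, the lowest of its group. Within groups, the brighter *Dbp* probe had r = 0.74 with the choroid plexus mean (rho 0.71, exact permutation p = 0.0312 and 0.0521, adjusted p = 0.234), and r = 0.83 without the 2 farthest mice. The dimmer *Dbp* probe was not compared with this mean. The 6 erythroid markers tested all had a lower mean in BaP-exposed mice, 2 of them past limma's adjusted p of 0.05, with list means of 3.81 to 4.01 against 2.89 to 3.20. List means overlapped between the groups for endothelial markers (1.49 to 1.89 against 1.55 to 1.75), oligodendrocyte markers (4.55 to 4.81 against 4.55 to 4.95), astrocyte markers (4.50 to 4.93 against 4.51 to 4.68) and microglia markers (2.19 to 2.35 against 2.26 to 2.32). Within the endothelial list, *Cldn5*, a tight junction gene, had a log2 fold change of −0.57 without overlap of the groups (limma's adjusted p = 0.138). At limma's unadjusted p of 0.05, 3 of the 8 endothelial markers were called with a higher mean, against 4.53% of all probes. Ependymal markers overlapped at 1.13 to 1.86 against 1.1 to 2.56, with a median log2 fold change of 0.46, and thalamus markers at −0.03 to 0.16 against −0.19 to 0.29. Of the 8 markers of hippocampal neurons, all tested, 7 had a higher mean after BaP, the median log2 fold change was 0.23 and none passed limma's adjusted p of 0.05. At limma's unadjusted p of 0.05, 1 was called with a higher mean, against 4.53% of all probes. Their list means were 3.09 to 3.35 against 3.25 to 3.64. Under the source names, the list means overlapped for glucocorticoid-responsive genes (0.07 to 0.65 against 0.22 to 0.57), choroid plexus markers (2.25 to 4.85 against 1.45 to 4.38) and erythroid markers (3.11 to 4.01 against 2.89 to 4.00). The part of these cell types in the differences of *Dbp*, *Nr1d1*, *Nr1d2*, *Per1* and *Per2* was not tested.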

How the data were processed

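The authors deposited scanner output of 8 2-colour Agilent arrays (Feature Extraction 11.0.1.1), which holds the intensity of each spot in Cy5 and Cy3, local background, outlier marks and a log10 ratio. They also deposited log2 ratios, LOWESS-normalized. Median spot intensities were corrected with normexp (offset 50), control and outlier spots left out, and log2 ratios normalized within arrays by loess (span 0.3) in limma 3.58.1 under R 4.3.3. Replicate spots were averaged per probe. A probe entered the test if its Cy5 signal was well above background on 4 or more of the 8 arrays, which used lmFit, eBayes and Benjamini-Hochberg adjustment of limma's p-values. The paper's test, a microarray analysis of variance, was replaced by limma, with a gene-wise F test as an alternative. Exact permutation tests were 2-sided. Correlations, Dixon's outlier rule and promoter motifs were computed in Python 3.11.15 (pandas 2.3.3, numpy 2.4.6, scipy 1.17.1).

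Of 28685 probes with a RefSeq accession, 27235 (94.9%) were named through a RefSeq gene table of GRCm38.p6, used for names only. For a gene with several probes the brightest stands for it, and the dimmer *Dbp* probe is given beside it. The genes named are the 10 members, genes of the loop, turnover and output lists without overlap of the groups or with a direct role in the loops, and the 3 genes most like *Dbp*, *Per1* and *Arntl* each. *Fos*, *Fosb*, *Cldn5*, *Slc17a6*, *Tcf7l2*, *Ramp3*, *Lef1* and *Prkcd* were named after their values were seen. The members and lists were chosen with earlier results of these data known. Median Cy5 intensity was 108 to 174 per array over a background of 67 to 71, and 56.6% to 67.4% of spots were well above it. The number of arrays limits the precision. The scripts were tested on simulated data. The alternatives covered background correction, normalization, filters, the Cy5 channel alone, the deposited ratios, blocks, the fit, the labels and leaving out each mouse. Scaling the arrays to a common spread was added after seeing the data.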

Additional observations from a re-analysis of the deposited data

Results flagged for a closer look

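In 4 of the 41 groups of 4 mice examined, for the 11 probes of the clock genes and for 10 genes named from the loop, turnover and output lists (*Btrc* in BaP-exposed mice only), 1 mouse stood far from the other 3 by Dixon's test, where chance gives about 2.05. *Per2* in BaP-exposed mouse 3 was at 0.93, against 0.64 to 0.65 in the others of its group, a gap of 0.956 of the whole range. *Per1* in control mouse 3 was at 1.22, against 0.94 to 0.97, a gap of 0.896. *Hlf* in BaP-exposed mouse 4 was at 4.10, against 3.48 to 3.59, a gap of 0.835. *Rora*, which encodes the receptor that activates *Arntl*, was at 1.69 in the same mouse, against 0.95 to 1.06, a gap of 0.85. *Rora* was also on the list of thalamus markers. Of its 6 tested genes, 3 were highest in this mouse within the group, *Rora*, *Slc17a6* (4.07, against 2.75 to 3.22) and *Tcf7l2* (−0.44, against −1.59 to −1.34), and 3 were not, *Ramp3* (0.07, against 0.02 to 0.66), *Lef1* (−1.29, against −1.62 to −1.22) and *Prkcd* (−2.39, against −1.74 to −0.49).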

How the results depend on the processing

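The number of arrays and a single reading per mouse, at a time of day that is not given, limit these results, and the labels of 4 mice disagree. With groups by source name, the log2 fold change of *Dbp* was −0.10, of *Per1* −0.05 and of *Per2* −0.08, *Dbp* minus *Tef* was −0.02, *Dbp* minus *Hlf* −0.09 and *Per2* minus *Per3* −0.02, and 0 of the 10 genes were called at an unadjusted p of 0.05 or had groups without overlap. There *Nr1d1* was at 0.17, *Nr1d2* 0.04, *Usp2* 0.07, *Bhlhe40* 0.02, *Nfil3* −0.04 and *Btrc* 0.06. Centring on the median gave *Per1* 0.61, *Nr1d1* 0.65, *Nr1d2* 0.50, *Per2* 0.33, *Clock* 0.34, *Tef* 0.09, *Hlf* 0.16, *Per3* 0.11 and *Arntl* 0.24, where all probes had a median of 0.167. The Cy5 channel alone gave *Hlf* 0.08, *Clock* −0.04 and *Arntl* minus *Clock* 0.02. *Per3* was at 0.01 and *Arntl* at 0.00 without background correction, at 0.10 and 0.02 with the scanner's log ratio (*Per2* 0.32), and *Per3* at 0.03 in the deposited ratios. Leaving out 1 mouse at a time gave −0.12 to 0.10 for *Per3*, −0.12 to 0.09 for *Arntl*, −0.22 to 0.04 for *Hlf* and −0.30 to 0.06 for *Tef* minus *Hlf*.

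The replicate numbers did not pair the mice: deviations of same-numbered mice correlated at −0.354, 0.0313, −0.00716 and −0.00662, and 0 of 8 mice correlated best with their own number. With the replicate block, 4 of the 10 genes were called at an unadjusted p of 0.05 and 3 probes of the whole array passed, the same counts as without it. The count of probes passing was 6 with the Cy5 channel alone, 5 with no filter, and 0 in limma with the scanner's log ratio (2646 at an unadjusted p of 0.05), by source name (1430) and in the 4 undisputed mice (2217), and 0 with the gene-wise F test (2682). It was 1 to 3 with 1 mouse left out, and 1 without control mouse 1, 3 or 4 or BaP-exposed mouse 2. The cause was not tested. With the groups of the titles, *Dbp*, *Nr1d1*, *Nr1d2*, *Per1* and *Per2* had the higher mean in BaP-exposed mice in every alternative run.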

Other observations

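The 3 genes whose deviations within groups were most like those of *Dbp*, *Per1* or *Arntl* were looked up among all genes outside the 10. Over 14865 genes and 8 mice, *Dbp* was most like *Tirap* (r = 0.982), *Nagpa* (0.98) and *Slc38a1* (0.977), while *Hlf*, the most like among the 10, had r = 0.652, with 1414 genes at or above it. *Per1* was most like *Cd84* (0.973), *Pecam1* (0.958) and *Ncapg2* (0.945), and 497 genes were at or above its r of 0.703 with *Nr1d1*. *Arntl* was most like *Rad54l2* (0.987), *Mad1l1* (0.983) and *Rttn* (0.981), and 2180 genes were at or above its r of 0.6 with *Per2*. These genes were picked as the highest of many and share arrays with the clock genes, so that each r is a description. The log2 fold changes of *Tirap* at −0.02 and *Cd84* at −0.03 were far from those of *Dbp* and *Per1*.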
